A study of Mus musculus with 59 samples.

Results

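The core circadian clock genes Arntl, Npas2, Clock, Per1, Per2, Per3, Cry1, Cry2 and Ciart were followed across muscles of tumour-bearing mice. The 9 genes were taken by their symbols and not by a cut on measured values, but earlier results of these data were known when they were chosen. All 9 were found once each among 47643 gene symbols measured by RNA-seq in 59 muscle libraries. Expression is given as TPM, a level divided by transcript length and scaled to the same total in every library, so that levels of different genes can be set side by side but the sequencing depth is not known.

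All 59 libraries came from female NCI Ath/nude mice aged 4 months, an athymic strain without mature T cells, and every mouse carried a human pediatric melanoma xenograft under the skin. The cachectic (CAC) melanoma causes wasting and the non-cachectic (NONCAC) melanoma does not. Each is a single patient-derived xenograft line, so that the melanoma comparison sets 2 lines side by side, and no tumour-free mice were analysed here. Diaphragms came from mice that received 3 intraperitoneal injections, in the last week, of recombinant mouse Fibcd1 (rFibcd1, 3 mg/kg), a secreted protein studied as a regulator of myofiber size, or of mock vehicle with bovine albumin. The diaphragm groups were non-cachectic mock (n = 9), non-cachectic rFibcd1 (n = 10), cachectic mock (n = 10) and cachectic rFibcd1 (n = 10). Tibialis anterior (TA), a fast limb muscle, and soleus (SOL), a slow one, came from cachectic and non-cachectic mice (n = 5 in each of the 4 groups), for which the labels name no injection. The hour at which muscles were collected is not given in the sources used here. For clock genes, a difference in hour between groups and an effect of treatment or melanoma therefore cannot be told apart.

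The circadian clock is a feedback loop of transcription that runs in nearly every cell, skeletal muscle included. Arntl (also called Bmal1) pairs with Clock or with its paralog Npas2 and binds E-box sequences, which switches on the Per, Cry and Ciart genes, and the products of those genes then repress the Arntl and Clock pair. Arntl transcripts therefore peak at about the opposite time of day from transcripts of the Per genes and Ciart, while Cry1 peaks later than the Per genes. A second loop, of the Rev-erb repressors (Nr1d1 and Nr1d2) and the Ror activators, acts on RORE sequences of Arntl, and the factors Dbp, Tef and Hlf act on D-box sequences.

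Promoters of 5 members are shown because they hold the kinds of sequence through which the loop is wired. A further reason is that transcripts of Arntl moved against those of Per3 and Ciart in some of the comparisons that follow. These were rFibcd1 against mock in the non-cachectic diaphragm and the melanomas in soleus, whereas in TA Arntl and Per3 both had positive differences. Each window runs from 250 bases before to 50 bases after a RefSeq transcript start (mouse GRCm38.p6), 5′ to 3′ on the strand of the gene. Capitals mark matches on either strand to the E-box (CACGTG), the related E'-box (CACGTT), the RORE core (AGGTCA) and the D-box (TTATGNAA).
Arntl, chr7:113207261-113207560, plus strand: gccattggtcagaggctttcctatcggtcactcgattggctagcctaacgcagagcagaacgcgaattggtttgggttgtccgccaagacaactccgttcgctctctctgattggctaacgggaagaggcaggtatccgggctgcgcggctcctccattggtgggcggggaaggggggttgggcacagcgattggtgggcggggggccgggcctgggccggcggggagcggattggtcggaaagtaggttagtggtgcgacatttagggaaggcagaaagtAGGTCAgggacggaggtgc
Per1, chr11:69098699-69098998, plus strand: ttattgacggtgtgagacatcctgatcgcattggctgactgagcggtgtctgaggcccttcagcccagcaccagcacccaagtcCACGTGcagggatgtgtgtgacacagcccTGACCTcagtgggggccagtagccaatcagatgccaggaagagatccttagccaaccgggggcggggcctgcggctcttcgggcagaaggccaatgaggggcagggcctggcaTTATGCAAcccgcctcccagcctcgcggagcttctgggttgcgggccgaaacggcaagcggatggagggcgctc
Per3, chr4:151044616-151044915, minus strand: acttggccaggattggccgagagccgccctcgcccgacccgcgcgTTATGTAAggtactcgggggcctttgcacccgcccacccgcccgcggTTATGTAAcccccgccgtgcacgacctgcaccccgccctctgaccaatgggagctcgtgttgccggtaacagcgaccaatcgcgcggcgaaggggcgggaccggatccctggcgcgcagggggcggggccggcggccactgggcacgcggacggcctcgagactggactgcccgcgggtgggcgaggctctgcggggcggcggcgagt
Cry1, chr10:85185005-85185304, minus strand: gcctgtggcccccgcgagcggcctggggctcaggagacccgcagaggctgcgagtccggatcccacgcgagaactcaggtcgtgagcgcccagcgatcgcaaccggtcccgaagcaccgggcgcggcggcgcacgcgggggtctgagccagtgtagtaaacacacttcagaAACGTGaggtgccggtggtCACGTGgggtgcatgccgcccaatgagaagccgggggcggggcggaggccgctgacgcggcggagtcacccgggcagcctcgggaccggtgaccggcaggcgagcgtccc
Ciart, chr3:95882179-95882478, minus strand: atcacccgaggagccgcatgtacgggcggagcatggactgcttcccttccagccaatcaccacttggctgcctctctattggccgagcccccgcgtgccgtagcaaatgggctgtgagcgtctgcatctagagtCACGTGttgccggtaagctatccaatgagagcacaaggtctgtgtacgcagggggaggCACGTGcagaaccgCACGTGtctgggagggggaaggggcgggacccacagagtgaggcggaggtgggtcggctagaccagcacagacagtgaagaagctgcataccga

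Windows were present for 8 of the 9 members, all but Per2, which was therefore not searched. They numbered 12 in all, since Arntl, Clock and Per1 have several. Ciart held 3 E-boxes within its window, and an E-box was found in 3 of the 12 windows (1 each of Per1, Cry1 and Ciart), against 7.15% of all 32851 windows of this length. An E'-box was found in 2 windows (Cry1 and Cry2), against 4.68% of all windows. Per3 held 2 D-boxes and Per1 held 1, so that 2 of the 12 windows held one, against 3.38%. The RORE core was found in 3 of the 12 windows (1 each of Arntl, Clock and Per1), against 16.26%. None of the 12 windows held the cyclic AMP element (TGACGTCA), which stood in 1.79% of all windows. A match describes letters only, since binding was not measured.

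The members lie in the genome as follows (GENCODE M21, GRCm38). Arntl spans chromosome 7, 113207465 to 113314126, Npas2 spans chromosome 1, 39193731 to 39363236, and Clock spans chromosome 5, 76209868 to 76304792. Per1 spans chromosome 11, 69095217 to 69109960, Per2 spans chromosome 1, 91415982 to 91459324, and Per3 spans chromosome 4, 151003652 to 151044665. Cry1 spans chromosome 10, 85131700 to 85185064, Cry2 spans chromosome 2, 92403646 to 92434043, and Ciart spans chromosome 3, 95878503 to 95882251. A gene on the opposite strand shared 0.440% of the exonic bases of Arntl and another shared 4.67% of those of Cry2, and reads there may have been assigned to either gene.

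The libraries differed in ways that bear on the clock genes. Between 16436 and 19456 genes were above 0 in each library. Skeletal muscle markers were high in every library, with summed levels of 46950 to 92770 TPM over 9 genes, and none was at 0 in all libraries of a group. Slow myosin Myh7 averaged 5770 TPM in soleus, 412 TPM in diaphragm and 1.67 TPM in TA. Macrophage markers (5 genes, none at 0 in a whole group) summed to a median of 292.5 TPM in the cachectic and 128.0 TPM in the non-cachectic mock diaphragm, to 53.2 and 13.8 TPM in TA and to 107.2 and 46.7 TPM in soleus. Those called higher in the cachectic group were 2 of 5 in the mock diaphragm (median log2 difference 0.87), 4 of the 4 tested in TA (1.22) and 1 of 5 in soleus (-0.10), where the sum and the median thus differ in direction, beside 33.5%, 60.2% and 25.1% of all genes called. Endothelial markers were called higher for 3 of 5 in the mock diaphragm, 3 higher and 1 lower in TA, and 1 lower in soleus. Of 4 fibroblast markers 1 was called higher in the mock diaphragm and 2 in TA, and 2 were called lower in soleus. Of 9 skeletal muscle markers 3 were called higher and 1 lower in the mock diaphragm, 2 higher and 4 lower in TA, and 2 higher in soleus. Between melanomas after rFibcd1, 1 skeletal muscle and 1 endothelial marker were called lower. The share of TPM from mitochondrial genes was 32.9 to 41.6% in the cachectic and 41.9 to 51.9% in the non-cachectic mock diaphragm, 25.1 to 45.6% and 47.3 to 51.7% in TA, and 24.1 to 34.6% and 38.96 to 44.04% in soleus, without overlap in any of the 3 muscles. The part of markers and of this share in the results was not tested. The libraries also fell into a high and a low state of the pseudogene Pcna-ps2, above or below 2 TPM. High-state libraries were 9 of 10 in the cachectic mock, 8 of 10 in the cachectic rFibcd1, 3 of 9 in the non-cachectic mock and 6 of 10 in the non-cachectic rFibcd1 diaphragm. All 10 cachectic limb muscles were high and all 10 non-cachectic ones were low, so that state and melanoma cannot be told apart there. Within-state differences are given beside the diaphragm comparisons.

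**Figure D1:**
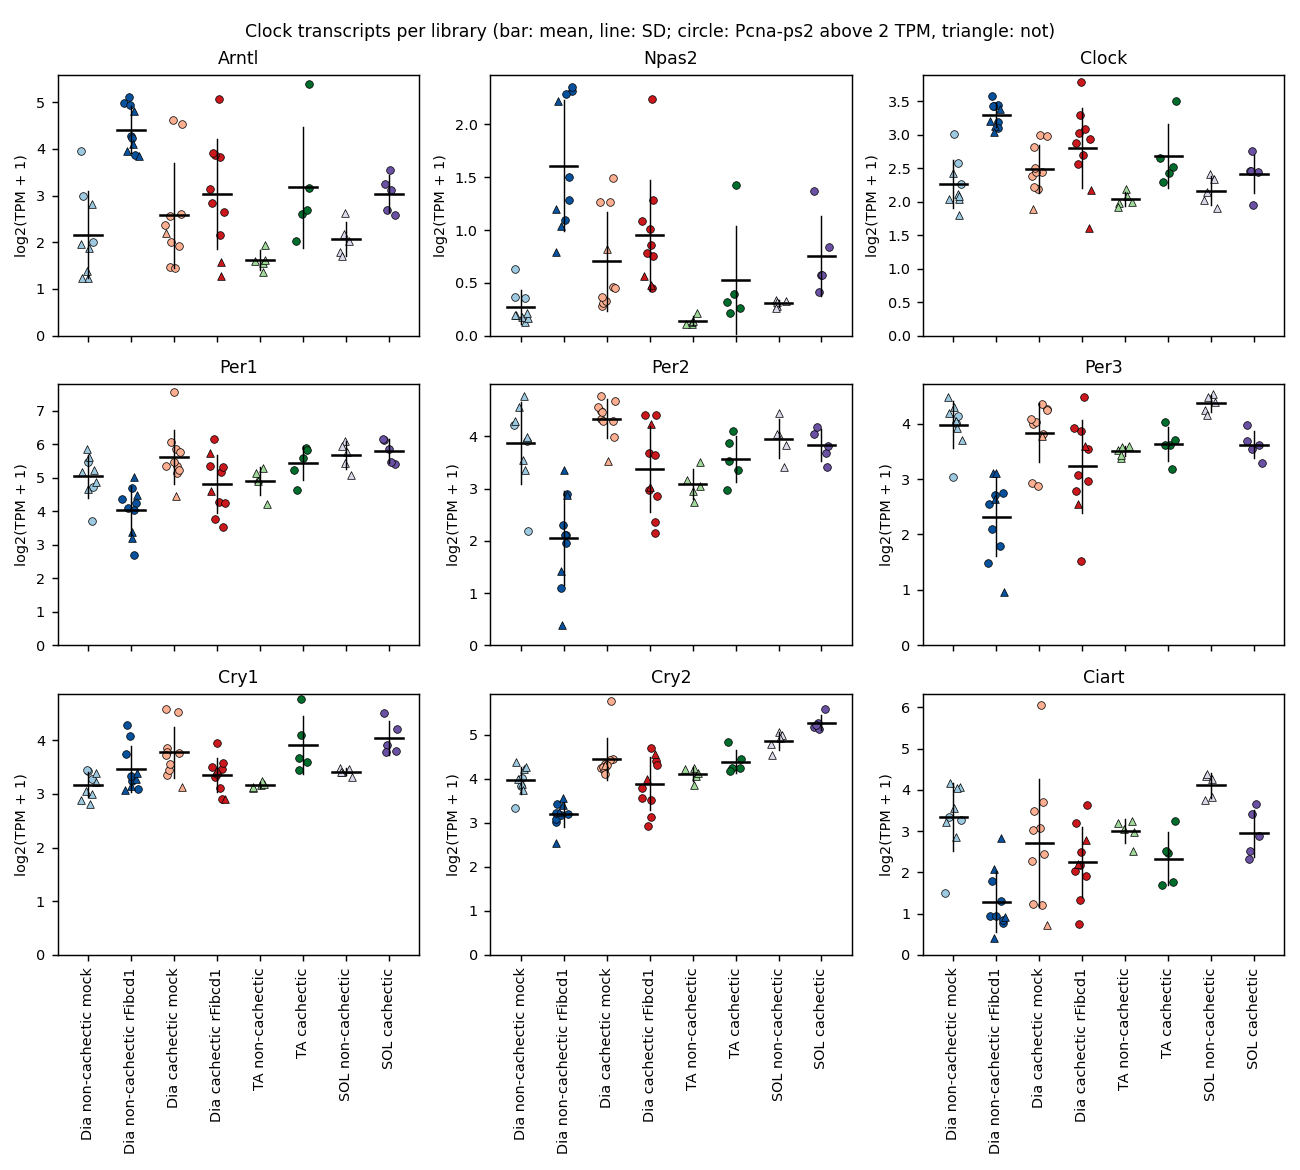
Level of each of the 9 clock genes in each of the 59 libraries, as log2(TPM + 1) on the vertical axis, with the 8 groups along the horizontal axis. Bars are group means, lines are 1 SD, circles are high-state and triangles low-state libraries, and the non-cachectic rFibcd1 diaphragm stands above the non-cachectic mock diaphragm for Arntl, Npas2 and Clock and mostly below it for the Per genes, Cry2 and Ciart.

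Without wasting, rFibcd1 and mock were compared in the non-cachectic diaphragm. The 3 activators were higher and 3 of the 6 repressors (Per2, Per3 and Ciart) were lower after rFibcd1. Of the 9 members, 6 passed the test (limma on log2(TPM + 1), Benjamini-Hochberg adjusted p under 0.05 over all genes tested), 3 higher and 3 lower, against 0.417% of 13426 genes. The median log2 difference of all genes was 0.15, that of the members was -0.77.

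Arntl, the activator without which the loop stops, ranged from 13.3 to 33.5 TPM (median 18.1) in the 10 rFibcd1 libraries and from 1.34 to 14.6 TPM (median 2.93) in the 9 mock libraries. The groups overlapped through a single mock library, number 66 in the deposited table, at 14.6 TPM, since the next mock library stood at 6.90 TPM. Arntl rose by 2.25 (log2, SE 0.430, adjusted p = 0.00437), a 4.75-fold difference on the log2(TPM + 1) scale. Clock, its partner, ranged from 7.24 to 11.0 TPM after rFibcd1 and from 2.49 to 7.03 TPM after mock, so that all 10 treated libraries stood above all 9 mock libraries. Clock rose by 1.03 (log2, SE 0.182, adjusted p = 0.00161). Npas2, which can replace Clock as the partner of Arntl, ranged from 0.726 to 4.12 TPM after rFibcd1 and from 0.0926 to 0.553 TPM after mock, again without overlap. How many of all genes had ranges without overlap was not counted, here or in the comparisons below. Npas2 rose by 1.34 (log2, SE 0.216, adjusted p = 0.00145), but it entered the fit through 16 of 39 libraries at 1 TPM or more, 9 of them in this rFibcd1 group and none in the mock group, so the filter itself favoured a difference.

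Among the repressors Per2, Per3 and Ciart fell after rFibcd1. Per2, whose protein carries the Cry proteins to the Arntl and Clock pair, ranged from 0.304 to 9.25 TPM (median 3.33) after rFibcd1 and from 3.56 to 26.3 TPM (median 14.9) after mock, and fell by 1.82 (log2, SE 0.330, adjusted p = 0.00252). Per3, a further Per paralog with the D-boxes shown above, ranged from 0.951 to 7.64 TPM after rFibcd1 and from 7.18 to 21.4 TPM after mock. The ranges of Per3 met only at their edges, and Per3 fell by 1.66 (log2, SE 0.290, adjusted p = 0.00161). Ciart, a repressor whose promoter held 3 E-boxes, ranged from 0.328 to 6.18 TPM (median 0.923) after rFibcd1 and from 1.81 to 16.96 TPM (median 9.09) after mock, and fell by 2.05 (log2, SE 0.464, adjusted p = 0.0286). The call for Ciart was the least stable of the 6, since leaving out any 1 of 9 libraries (47, 49, 56, 58 and 59 of the rFibcd1 group and 62 to 65 of the mock group) gave adjusted p between 0.0546 and 0.0764, with log2 differences of -2.02 to -1.94. Its call was also lost with library state as a term (-1.99, adjusted p = 0.0603) and with no filter (adjusted p = 0.0510). Under Dunn's rank test, Npas2 and Clock were the 2 members that passed.

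The other 3 members did not pass in the fit over all 39 diaphragm libraries, although Per1 (adjusted p = 0.0269) and Cry2 (adjusted p = 0.00174) passed with only the 2 groups compared, and Cry2 after median-ratio scaling (-0.94, adjusted p = 0.0413). Per1, the Per gene that also answers to glucocorticoids and activity, had a median of 16.9 TPM after rFibcd1 and 35.1 TPM after mock (log2 difference -1.02, SE 0.340, adjusted p = 0.210). Cry2, a repressor that competes with Cry1 for the same partners, had medians of 8.28 and 14.8 TPM (log2 difference -0.77, SE 0.198, adjusted p = 0.0807), and passed without library 66 of the mock group or without cachectic library 11, 17 or 20 of the same fit (adjusted p 0.0226 to 0.0427). Cry1, the stronger Cry repressor, had medians of 8.93 and 8.34 TPM and was the only repressor with a positive log2 difference (0.30, SE 0.169, adjusted p = 0.318).

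The 6 called members had the same direction in both library states. Among high-state libraries (6 rFibcd1, 3 mock) and low-state libraries (4 and 6), the log2 differences were 1.58 and 2.42 for Arntl, 1.36 and 1.13 for Npas2, and 0.75 and 1.11 for Clock. They were -1.36 and -2.07 for Per2, -1.49 and -1.65 for Per3, and -1.60 and -2.09 for Ciart. The columns of the deposited table number the rFibcd1 libraries 46 to 50 and 56 to 60 and the mock libraries 61 to 70, so that column number and treatment cannot be told apart. Nor can an hour of collection that differed between the groups and an effect of rFibcd1, as that hour is not given.

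In the cachectic diaphragm the same comparison found no member called. Arntl ranged from 1.43 to 32.6 TPM (median 7.00) after rFibcd1 and from 1.74 to 23.5 TPM (median 3.87) after mock, so that each group alone spanned more than the difference between them (log2 difference 0.46, SE 0.418, adjusted p = 0.730). The share called over all genes was 0.0447%, and none of the 9 members passed limma's test, while 5 had an unadjusted p under 0.05. These 5 had negative differences, at -0.97 for Per2 (median 9.33 TPM after rFibcd1 and 20.2 TPM after mock), -0.80 for Per1, -0.61 for Per3, -0.55 for Cry2 and -0.42 for Cry1, with adjusted p from 0.278 to 0.455. Under Dunn's test 0 members were called here as well. Among the high-state libraries (8 rFibcd1, 9 mock) Arntl differed by 0.82 and Per2 by -1.12, and among the low-state ones (2 and 1) by -0.77 and 0.11.

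Whether the difference between rFibcd1 and mock varied between melanomas was tested by the interaction term. No member passed, against 0.0223% of all genes called, and 6 of the 9 had an unadjusted p under 0.05. The rFibcd1 minus mock difference in the cachectic minus that in the non-cachectic diaphragm was -1.79 for Arntl (log2, SE 0.600, adjusted p = 0.507), -1.09 for Npas2 (adjusted p = 0.427) and -0.72 for Clock (adjusted p = 0.507). It was 1.05 for Per3 (adjusted p = 0.543), 1.58 for Ciart (adjusted p = 0.548) and -0.72 for Cry1 (adjusted p = 0.507). That the rFibcd1 and mock groups differed otherwise with 1 melanoma than with the other was therefore not shown.

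**Figure D2:**
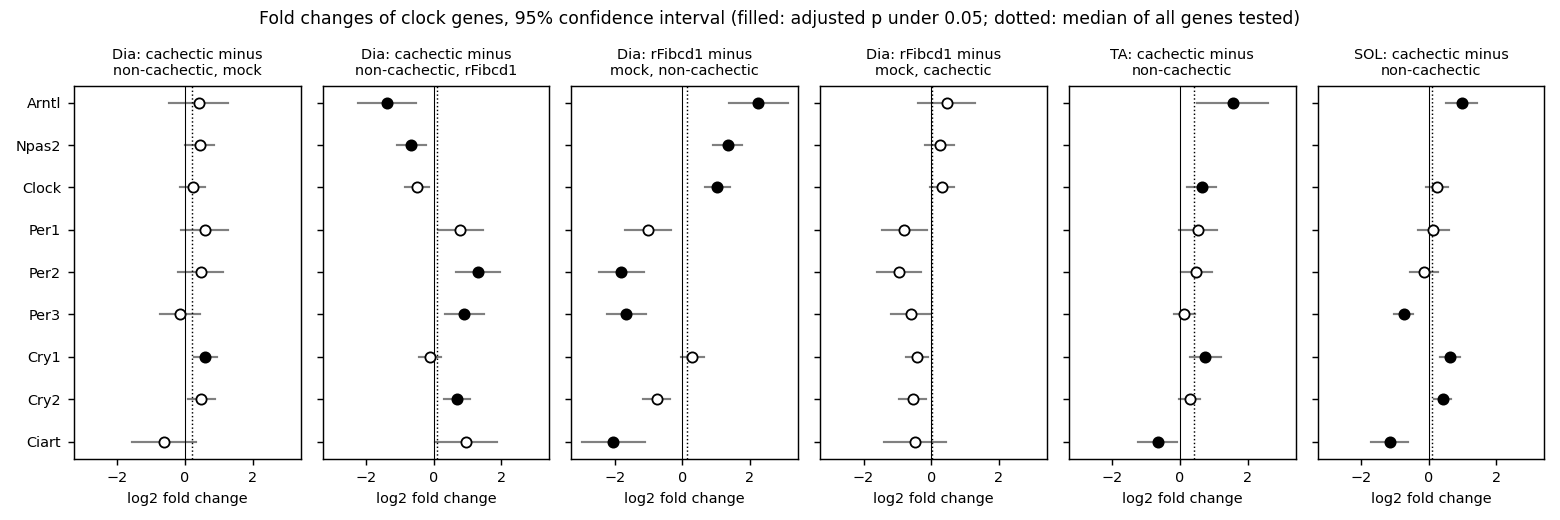
Log2 difference of each clock gene (points) with its 95% confidence interval (lines) in 6 comparisons, on the log2(TPM + 1) scale. Filled points passed an adjusted p of 0.05 over all genes and dotted lines mark the median of all genes tested, which was 0.41 in TA, and the widest set of filled points, 6 of 9, is the rFibcd1 comparison in the non-cachectic diaphragm.

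The cachectic and non-cachectic melanomas were compared first in the mock diaphragm, where Cry1 alone passed, 1 of 9 members against 33.5% of 13426 genes. Cry1 ranged from 7.78 to 22.9 TPM (median 12.4) in cachectic and from 6.07 to 9.89 TPM (median 8.34) in non-cachectic libraries, and rose by 0.60 (log2, SE 0.169, adjusted p = 0.00688). All genes had a median log2 difference of 0.20 here, which leaves 0.40 for Cry1 relative to that median. The call was lost after median-ratio scaling (0.39, adjusted p = 0.0769) and with library state as a term (0.39, adjusted p = 0.120). Cry2 had a log2 difference of 0.48 (adjusted p = 0.0569), which passed without non-cachectic library 65 or without rFibcd1 library 2, 3, 14 or 17 of the same fit (0.48 to 0.53, adjusted p 0.0417 to 0.0497). Ciart had a log2 difference of -0.62 (adjusted p = 0.299). Npas2 had one of 0.43 (adjusted p = 0.116), and passed with a pseudocount of 0.1 (1.15, adjusted p = 0.0233).

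Arntl was low in most libraries of both mock groups. Cachectic libraries ranged from 1.74 to 5.07 TPM with the exception of library 8 at 22.2 TPM and library 34 at 23.5 TPM, and the log2 difference was 0.41 (SE 0.430, adjusted p = 0.458). That difference was -0.16 with library state as a term. Directions of several members were not shared by the states. Among high-state libraries (9 cachectic, 3 non-cachectic) the log2 difference was -0.37 for Arntl, 1.11 for Per1, 0.99 for Per2, 0.46 for Cry1 and 0.24 for Ciart. Between the 1 cachectic and the 6 non-cachectic low-state libraries it was 0.45 for Arntl, -0.79 for Per1, -0.57 for Per2, 0.07 for Cry1 and -2.92 for Ciart. A further cachectic mock library, number 20, held the highest levels of 3 repressors in its group, with Per1 at 186 TPM (next 65.4), Cry2 at 53.5 TPM (next 20.8) and Ciart at 65.1 TPM (next 12.04).

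After rFibcd1 the 2 melanomas differed in 5 members, against 9.11% of all genes. Arntl was lower in cachectic (median 7.00 TPM) than in non-cachectic libraries (median 18.1 TPM), and fell by 1.38 (log2, SE 0.418, adjusted p = 0.0321). Npas2, with medians of 0.765 and 1.63 TPM, fell by 0.66 (log2, SE 0.211, adjusted p = 0.0422), where the filter again favoured a difference, since 9 of the 16 libraries that admitted Npas2 belong to this non-cachectic group. Per2 had medians of 9.33 and 3.33 TPM and rose by 1.32 (log2, SE 0.322, adjusted p = 0.00854), Per3 had medians of 9.03 and 5.05 TPM and rose by 0.91 (log2, SE 0.282, adjusted p = 0.0367), and Cry2 had medians of 14.0 and 8.28 TPM and rose by 0.70 (log2, SE 0.192, adjusted p = 0.0187). Ranges overlapped for all 5. Clock had a log2 difference of -0.49 (adjusted p = 0.0692), which passed without cachectic library 2 or 17 (-0.60 to -0.55), with library state as a term (-0.61, adjusted p = 0.00730) and after median-ratio scaling (-0.57, adjusted p = 0.0125). Per1 had a difference of 0.79 (adjusted p = 0.124) and Ciart one of 0.96 (adjusted p = 0.176).

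These 5 calls depended on the fit. With only the 2 groups compared in the model, and under Dunn's test, 0 of the 9 members passed. Median-ratio scaling ended the calls of Per3 (adjusted p = 0.0521) and Cry2 (adjusted p = 0.0537). The Arntl call was lost without any 1 of 7 libraries (4, 5, 11 and 14 cachectic, 47, 49 and 58 non-cachectic, log2 -1.34 to -1.19, adjusted p 0.0504 to 0.0640), the Npas2 call without any 1 of 11 (those 7 and 3, 16, 56 and 59, adjusted p 0.0505 to 0.0933) and the Per3 call without any 1 of 6 (3, 4, 5, 47, 49 and 58, adjusted p 0.0640 to 0.0915). The directions were the same in both library states (8 and 6 high-state libraries, 2 and 4 low-state ones), with Arntl differing by -1.14 and -2.75 and Per2 by 1.23 and 1.62. This comparison and the rFibcd1 comparison use the same 10 non-cachectic rFibcd1 libraries, and their results are not independent.

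In TA the activators Arntl and Clock and the repressor Cry1 were higher with the cachectic melanoma and Ciart was lower, 4 of the 8 members tested against 60.2% of 11105 genes. Npas2 was not tested, since 1 of 10 libraries reached 1 TPM. The median log2 difference of all genes was 0.41, and values relative to it are given beside each difference.

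Arntl stood at 5.13, 5.51, 40.9, 3.09 and 7.94 TPM in the cachectic TA and at 2.02, 2.84, 1.57, 1.95 and 2.08 TPM in the non-cachectic TA. All 5 cachectic libraries stood above all 5 others, and Arntl rose by 1.56 (log2, SE 0.483, adjusted p = 0.0178), or 1.15 relative to the median of all genes. Library 8, at 40.9 TPM, carried a large part of this difference, which was 1.01 and still called without it. Clock stood at 3.93, 4.73, 10.4, 4.37 and 5.28 TPM against 2.95, 3.56, 2.99, 2.80 and 3.25 TPM, and rose by 0.65 (log2, SE 0.199, adjusted p = 0.0177), or 0.23 relative to the median. Cry1 stood at 11.1, 9.86, 26.3, 11.7 and 16.1 TPM against 7.62, 7.74, 7.99, 8.09 and 8.51 TPM, and rose by 0.75 (log2, SE 0.214, adjusted p = 0.0133), or 0.34 relative to the median. Neither Clock nor Cry1 overlapped between groups, a separation not counted over all genes, and both lost the call after median-ratio scaling (0.23, adjusted p = 0.0844, and 0.28, adjusted p = 0.0695). Without library 8 their differences were 0.44 and 0.53, both still called.

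Ciart moved the other way in TA. It stood at 4.50, 4.73, 2.39, 8.50 and 2.24 TPM in cachectic and at 4.73, 6.89, 8.14, 7.31 and 8.46 TPM in non-cachectic libraries, and the highest value of all was a cachectic one. Ciart fell by 0.66 (log2, SE 0.268, adjusted p = 0.0490), or 1.07 below the median of all genes, and leaving out any 1 of 8 libraries, all but cachectic 9 and non-cachectic 61, lost the call (log2 -0.71 to -0.50, adjusted p 0.0552 to 0.115), as did having no filter (adjusted p = 0.0943) or Dunn's test (adjusted p = 0.209). Per1 (0.53, adjusted p = 0.0813), Per2 (0.48, adjusted p = 0.0624), Cry2 (0.28, adjusted p = 0.0922) and Per3 (0.13, adjusted p = 0.429) had positive differences that did not pass, and after median-ratio scaling those of Cry2 and Per3 were -0.19 and -0.32. Per1 (0.73) and Per2 passed without cachectic library 6, Per2 also without non-cachectic library 65 (0.59 to 0.63), and Per3 without cachectic library 8 (0.24).

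In soleus 5 of the 8 members tested passed, against 25.1% of 11957 genes, with Arntl, Cry1 and Cry2 higher and Per3 and Ciart lower in the cachectic group. All genes had a median log2 difference of 0.09, and 2 of 4 fibroblast markers were called lower (list median -0.65). Arntl stood at 4.98, 8.52, 10.7, 5.50 and 7.70 TPM in cachectic and at 3.49, 5.15, 2.44, 3.08 and 2.27 TPM in non-cachectic libraries. Only the highest non-cachectic library overlapped the lowest cachectic one, and Arntl rose by 0.98 (log2, SE 0.212, adjusted p = 0.00692), a call lost under Dunn's test (adjusted p = 0.0641). Cry1 stood at 14.1, 12.7, 17.5, 12.9 and 21.9 TPM against 9.67, 8.97, 10.1, 9.66 and 10.0 TPM, without overlap, and rose by 0.63 (log2, SE 0.135, adjusted p = 0.00662). Cry2 stood at 35.2, 37.3, 46.9, 34.2 and 36.2 TPM against 26.6, 22.4, 32.3, 30.6 and 29.2 TPM, again without overlap, and rose by 0.42 (log2, SE 0.115, adjusted p = 0.0216), a call lost without library 61 or 62 of the non-cachectic group (adjusted p 0.0523 at most).

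The repressors Per3 and Ciart were lower in every cachectic soleus than in any non-cachectic one. Such separations were not counted over all genes, here or for the other soleus genes. Per3 stood at 10.6, 11.2, 8.83, 14.8 and 11.8 TPM against 18.1, 16.9, 22.2, 19.9 and 21.4 TPM, and fell by 0.74 (log2, SE 0.125, adjusted p = 0.00210). Ciart stood at 6.34, 9.62, 3.98, 11.6 and 4.72 TPM against 13.3, 12.4, 19.3, 18.1 and 19.8 TPM, and fell by 1.16 (log2, SE 0.247, adjusted p = 0.00645). Per2 had means of 13.4 ± 2.99 and 14.9 ± 4.02 TPM (SD, n = 5 each, log2 difference -0.13, adjusted p = 0.658) and Per1 of 55.8 ± 13.4 and 51.4 ± 14.2 TPM (log2 difference 0.13, adjusted p = 0.683). Clock had a log2 difference of 0.25 (SE 0.150, adjusted p = 0.250), and 0.36 (adjusted p = 0.0471) without cachectic library 6. Npas2, below the filter, was higher in all 5 cachectic libraries (0.327 to 1.58 TPM) than in the non-cachectic ones (0.200 to 0.263 TPM). In whole muscle, fewer cells of a type and less RNA per cell cannot be told apart.

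Whether the effect of the melanoma differed between muscles was tested in 1 fit over the 6 groups without rFibcd1. No member passed in the diaphragm minus TA comparison (5.04% of genes called, 0 members at an unadjusted p under 0.05), the diaphragm minus soleus comparison (2.52%) or the TA minus soleus comparison (20.4%). Per3 came closest, with the melanoma effect in TA exceeding that in soleus by 0.87 (log2, SE 0.325, adjusted p = 0.0516) and that in diaphragm exceeding soleus by 0.60 (log2, SE 0.284, adjusted p = 0.292). The median of all genes was 0.30 in the former comparison, which leaves 0.57 for Per3. Without any 1 of 7 libraries the difference between TA and soleus passed for Per3 (0.87 to 0.98, adjusted p 0.0336 to 0.0490), and so did Per3 with the column number as a random block (0.87, adjusted p = 0.00517) or with only the column numbers shared by the 3 muscles (adjusted p = 0.0188), the 7 being the diaphragm libraries 8, 34, 35 and 66, the TA libraries 6 and 8 and the soleus library 9.

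Levels in the non-cachectic muscles set the baseline. Npas2 was the lowest member in these 3 groups, at 0.213 ± 0.145 TPM (SD, n = 9) in the mock diaphragm, 0.104 ± 0.0340 TPM (SD, n = 5) in TA and 0.236 ± 0.0280 TPM (SD, n = 5) in soleus. Per1 was the highest, at 34.5 ± 13.7, 29.7 ± 7.80 and 51.4 ± 14.2 TPM. Cry2 stood at 14.9 ± 3.25 TPM in diaphragm, 16.3 ± 1.81 TPM in TA and 28.2 ± 3.87 TPM in soleus. It was lower in diaphragm than in soleus (log2 difference -0.90, SE 0.176, adjusted p = 0.000109), the 1 member called there, against 38.8% of genes.

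Against TA, Per2 and Per3 differed. Per2 stood at 15.3 ± 7.01 TPM (SD, n = 9) in the diaphragm, 7.60 ± 1.76 TPM (SD, n = 5) in TA and 14.9 ± 4.02 TPM (SD, n = 5) in soleus, and Per3 at 15.3 ± 4.06, 10.3 ± 0.705 and 19.7 ± 2.21 TPM. Between diaphragm and TA, 2 members were called against 72.5% of genes, Per2 at 0.79 (log2, adjusted p = 0.00830) and Per3 at 0.48 (adjusted p = 0.0331), where the median of all genes was 0.44. With only the column numbers shared by the 3 muscles, Per2 differed by 1.15, Per3 by 0.69 and Ciart, at 0.34 in the fit over all libraries (adjusted p = 0.556), passed as well (0.81, adjusted p = 0.0416). After median-ratio scaling neither Per2 nor Per3 passed, with Per2 at 0.27 (adjusted p = 0.326) and Per3 at -0.06, while Cry1 (-0.52, adjusted p = 0.00244) and Cry2 (-0.69, adjusted p = 0.000600) did. Relative to that median Per3 differed by 0.04, and its call was lost without diaphragm library 63, 64 or 65 or TA library 61, 62 or 64 (0.42 to 0.49, adjusted p 0.0502 to 0.0674). Between TA and soleus 3 members were called against 69.5% of genes, Per2 at -0.87 (adjusted p = 0.0105), Per3 at -0.86 (adjusted p = 0.00129) and Cry2 at -0.75 (adjusted p = 0.00121). Markers of other cell types moved with these muscles. Between diaphragm and TA all 3 mesothelium, 3 red blood cell, 5 macrophage, 4 fibroblast, 5 endothelial and 4 liver markers and 4 of 5 adipocyte markers were called higher, with median log2 differences of 5.38, 3.05, 2.58, 2.02, 0.95, 3.08 and 2.84, beside the 72.5% of all genes. Between TA and soleus all 5 adipocyte (list median -3.06), 5 endothelial (-0.69), 5 macrophage (-1.42) and 4 fibroblast markers (-1.46) were called lower. Between diaphragm and soleus all 3 mesothelium (5.03) and 3 red blood cell markers (2.16), 4 of 5 macrophage (1.16) and 3 of 4 fibroblast markers (0.77) were called higher. Their part in the results was not tested.

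Between TA and soleus the median of all genes was -0.47, and after median-ratio scaling none of the 9 members was called. Per2 lost its call there under Dunn's test (adjusted p = 0.0706). Ciart had the largest difference of the 9, at -1.11 (adjusted p = 0.0862), and passed with the column number as a random block (adjusted p = 0.0212), with only shared column numbers (adjusted p = 0.00612), with only the groups compared and under Dunn's test. Per1, at -0.77 (adjusted p = 0.0604), passed with the column number as a random block (adjusted p = 0.0118) and with only shared column numbers (adjusted p = 0.00903). Per1 also passed without diaphragm library 20, 22 or 66, TA library 65 or soleus library 61 (-0.92 to -0.77).

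The spread of the members between libraries of 1 group was above that of the median gene in 59 of 68 member and group combinations. The 9 others were Clock, Per3, Cry1 or Cry2 values, down to Cry1 in the non-cachectic limb muscles, with an SD of 0.06 on the log2(TPM + 1) scale in TA and in soleus, above 12.9% and 11.3% of genes. The SD of Arntl on the log2(TPM + 1) scale was 1.18 in the cachectic rFibcd1, 1.13 in the cachectic mock, 0.50 in the non-cachectic rFibcd1 and 0.92 in the non-cachectic mock diaphragm, where the median gene had 0.36, 0.24, 0.20 and 0.16. In the cachectic TA, through library 8, the SD of Arntl was 1.30, above that of 99.6% of genes. Ciart in the cachectic mock diaphragm had an SD of 1.55, above 99.2% of genes, through library 20 at 65.1 TPM and a lowest library at 0.660 TPM.

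Because the members varied so widely within groups, their pairwise relations were examined in each diaphragm group (36 pairs in 4 groups, Pearson's r on log2(TPM + 1), permutation p adjusted over all pairs and groups, exact at n = 9). In 3 of the 4 groups the activators had positive r with each other, as did the Per genes, Cry2 and Ciart, and r between the 2 sets was negative. In the cachectic mock group r within each set was positive too, but Npas2 (0.47 with Cry2, 0.32 with Per1) and Clock (0.40 with Per2, 0.18 with Per1) had positive r with several repressors. Pairs that passed numbered 8 in the cachectic mock, 14 in the cachectic rFibcd1, 21 in the non-cachectic mock and 13 in the non-cachectic rFibcd1 group. By Spearman's rho they numbered 1, 8, 12 and 7. Pairs of other genes were not tested, so that no share over all gene pairs stands beside these counts. Within the larger library state, which holds fewer libraries, fewer pairs passed in the cachectic mock and both non-cachectic groups, as given in the closing section. The sign of r was the same in all 4 groups for 28 of the 36 pairs, and 7 pairs passed in no group.

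Arntl with Clock was the only pair that passed in all 4 groups. The r was 0.78, 0.92, 0.96 and 0.85 in the cachectic mock, cachectic rFibcd1, non-cachectic mock and non-cachectic rFibcd1 groups (permutation adjusted p = 0.0276, 0.00240, 0.00216 and 0.0222), and rho was 0.61, 0.90, 0.95 and 0.77. Without the 2 libraries farthest from the median of Arntl, r was 0.35, 0.84, 0.87 and 0.75, so that the cachectic mock relation rested on libraries 8 and 34. Arntl with Npas2 had r of 0.72, 0.85, 0.79 and 0.95 in the same order and passed in 3 groups, but without 2 libraries it was 0.11 in the non-cachectic mock group.

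Arntl ran opposite to Per3, with r of -0.93, -0.55, -0.91 and -0.86 in the same group order, passing in 3 groups. Within the larger library state of each group (9, 8, 6 and 6 libraries) these were -0.95, -0.97, -0.92 and -0.90, and without the 2 libraries farthest from the median of Arntl they were -0.46, -0.74, -0.90 and -0.83, so that the cachectic mock value rested on libraries 8 and 34. Arntl with Per2 gave -0.04, -0.66, -0.90 and -0.53, and Arntl with Cry2 gave -0.15, -0.76, -0.96 and -0.49. In the non-cachectic mock group both of the last relations remained without the 2 farthest libraries (-0.87 and -0.95). Arntl with Ciart passed there too (-0.93, permutation adjusted p = 0.00467, and -0.94 without 2 libraries).

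Cry1 had positive r with Arntl in all 4 groups, values that mostly rested on the 2 farthest libraries. Its r with Arntl was 0.78, 0.59, 0.22 and 0.88 in the same order, passing in the cachectic mock and the non-cachectic rFibcd1 groups. Without the 2 farthest libraries it was -0.30, -0.01, -0.20 and 0.85, so that 1 of the 4 values, that of the non-cachectic rFibcd1 group, stayed positive. Within the larger library state of the non-cachectic mock group (6 libraries) it was -0.38. Cry1 with Per2 gave 0.44, -0.14, 0.13 and -0.16 and passed in no group, and within that larger state it was 0.69.

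Repressors other than Cry1 varied together in the non-cachectic mock group. Per2 there had r of 0.96 with Per3, 0.95 with Cry2 and 0.97 with Ciart, and Per3 had 0.97 with Cry2 (permutation adjusted p between 0.00216 and 0.00411). Per1 with Per2 gave 0.66, 0.95, 0.85 and 0.87 in the same order as above and passed in 3 groups. In the cachectic mock group, Per1 with Ciart (0.90) included library 20, and it was 0.62 without 2 libraries. Libraries of 1 group share a treatment and often a library state, and all levels share the TPM scale.

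**Figure D3:**
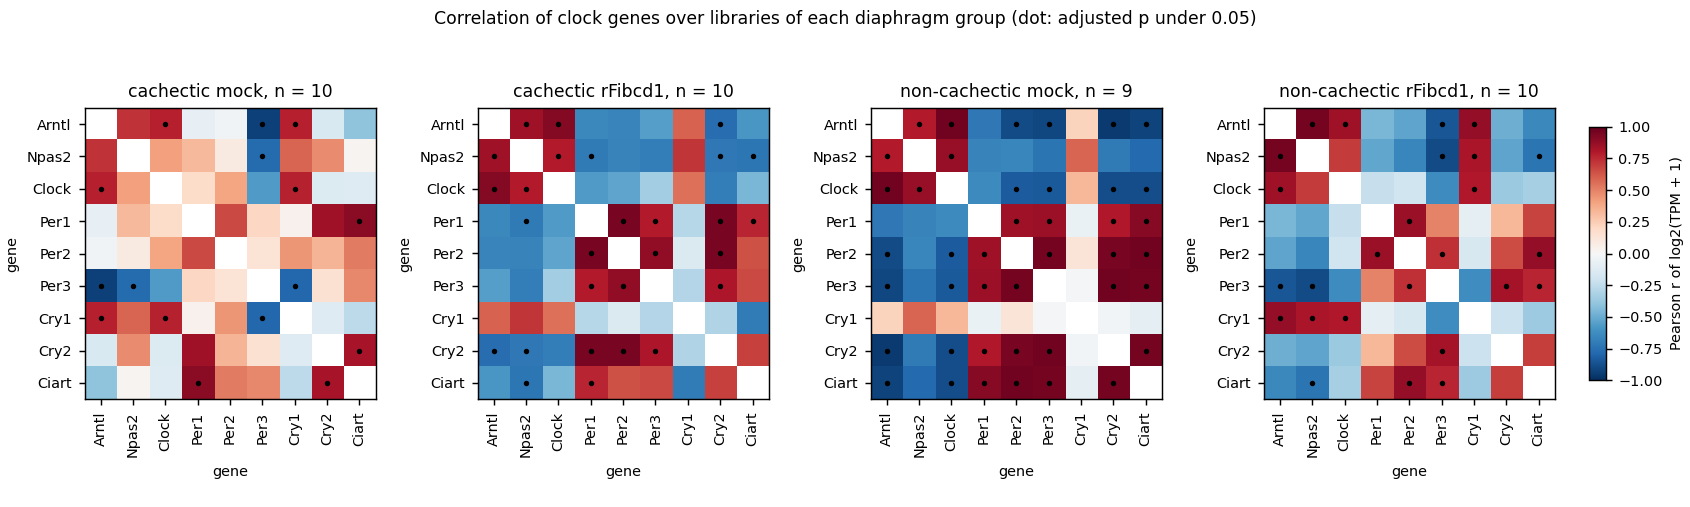
Pearson's r between each pair of the 9 clock genes on the log2(TPM + 1) scale in each of the 4 diaphragm groups, as colour from -1 to 1, with dots where the adjusted permutation p was under 0.05. Activators are positive with each other, as are the repressors other than Cry1, and squares between activators and those repressors are negative except for several in the cachectic mock group, with dots on 21 of 36 pairs in the non-cachectic mock group and on 8 in the cachectic mock group.

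**Figure D4:**
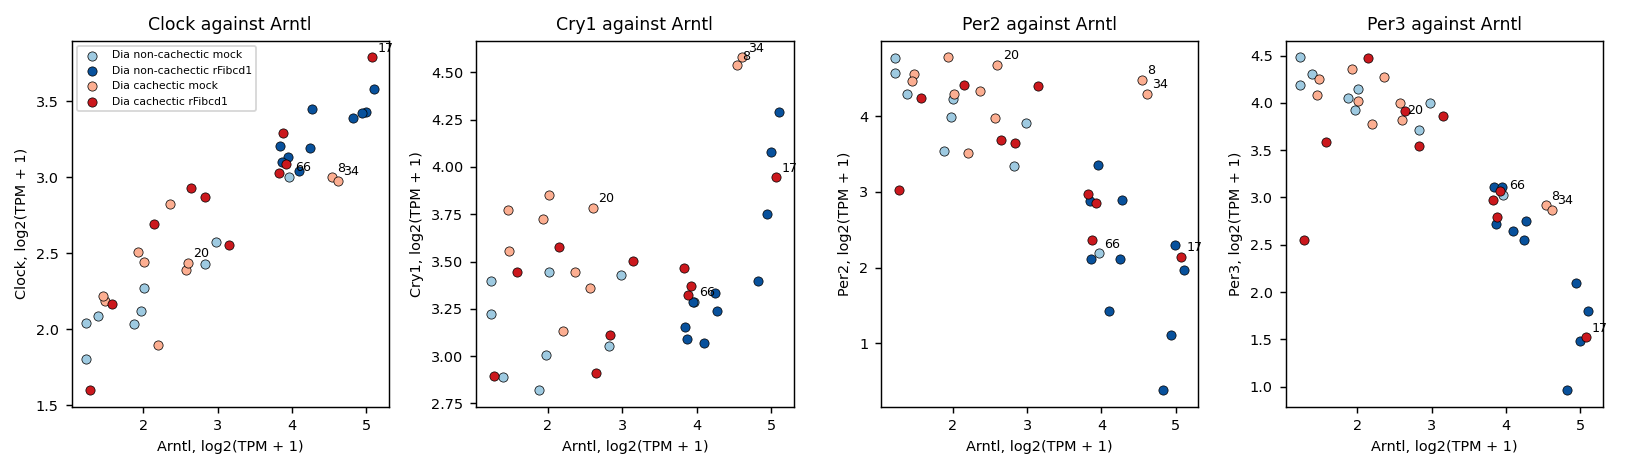
Clock, Cry1, Per2 and Per3 (vertical axes) against Arntl (horizontal axes) in 39 diaphragm libraries, all as log2(TPM + 1), coloured by group, with libraries 8, 17, 20, 34 and 66 numbered. Clock climbs with Arntl and Per3 declines, and libraries 8, 17, 34 and 66 stand at the high-Arntl end of their groups.

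Beyond the members, the genes whose levels followed Arntl most closely were sought among 9048 genes, after subtracting group means, over 39 diaphragm libraries, as a description with no test. Among the highest r were those of Rabgef1 (0.84), Leo1 (0.83), Alpk2 (0.80) and Pik3ca (0.79), beside 0.87 for Clock. The lowest were those of the sarcomere gene Tcap (-0.79), Dbp (-0.71), Tef (-0.70), 5930430L01Rik (-0.60) and Nr1d2 (-0.57). Around Per2 the highest were Mcf2l (0.80), Tef (0.78), Tsc22d3, a glucocorticoid-induced gene (0.75), Kcna5 (0.74) and Mn1 (0.73), and the lowest were Relt (-0.66), Klhl30 (-0.57), Fam101b (-0.55), Leo1 (-0.54) and Dusp10 (-0.53). These libraries share group structure, library state and the TPM scale.

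The factors that the clock drives, and the second loop, made up a list of 10 genes, among them Nr1d1, Nr1d2, Dbp, Tef, Hlf, Nfil3 and Bhlhe41. After rFibcd1 in the non-cachectic diaphragm 4 of the 10 fell and none rose, against 0.417% of all genes called in either direction, with a list median of -0.33 beside 0.15 for all genes. Dbp, which acts on D-boxes such as those of Per3, stood at 27.2 ± 18.7 TPM (SD, n = 10) after rFibcd1 and 116.5 ± 30.4 TPM (SD, n = 9) after mock and fell by 2.46 (log2, adjusted p = 0.00926). Its relatives Tef and Hlf fell by 1.12 (adjusted p = 0.00437) and 1.15 (adjusted p = 0.00161), and the repressor Bhlhe41 by 0.77 (adjusted p = 0.0319), a call lost without any 1 of 9 libraries (rFibcd1 47, 49 and 58, mock 61 to 65 and 67, adjusted p 0.0527 to 0.0933). The Bhlhe41 call was also lost with library state as a term (adjusted p = 0.0719) and with no filter (adjusted p = 0.0557). Under Dunn's test the calls of Tef (adjusted p = 0.110) and Bhlhe41 (adjusted p = 0.0858) were lost. Nr1d1, the Rev-erb repressor of Arntl, stood at 96.5 ± 34.8 TPM (SD, n = 10) after rFibcd1 and 90.9 ± 35.5 TPM (SD, n = 9) after mock and was not called. In the cachectic diaphragm none of the 10 was called after rFibcd1.

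Between melanomas the genes of the same list that passed went in both directions in the mock diaphragm and TA, and downwards in soleus, while other genes of the list did not pass. Its called shares, 4 of 10 in the mock diaphragm, 6 of 10 in TA and 5 of 10 in soleus, stand beside 33.5%, 60.2% and 25.1% of all genes. In the mock diaphragm Nfil3, a repressor acting on D-boxes, rose by 1.46 (log2, adjusted p = 0.000991), while Nr1d1 fell by 1.05 (adjusted p = 0.0178) and Bhlhe41 by 0.70 (adjusted p = 0.00329). In TA 4 rose, among them Nfil3 by 1.61, Rora by 0.80 and Bhlhe40 by 0.30, and 2 fell (Dbp by 1.09 and Bhlhe41 by 1.01), but Bhlhe40 lay below the median of all genes and had -0.19 after median-ratio scaling. Dbp in TA was at -0.62 without cachectic library 8 (adjusted p = 0.0110) and lost its call without cachectic library 7 or 10 or any of the 5 non-cachectic ones (adjusted p 0.0506 to 0.0764), and Bhlhe40 lost it without cachectic library 6, 7 or 9 or non-cachectic library 61, 62, 63 or 65 (adjusted p 0.0629 to 0.119). Without a filter both lost their calls (adjusted p = 0.0831 for Dbp and 0.0604 for Bhlhe40), and Bhlhe40 did under Dunn's test too (adjusted p = 0.0665). In soleus 5 fell and none rose, Dbp by 1.26, Bhlhe41 by 0.79, Hlf by 0.67, Nr1d2 by 0.50 and Tef by 0.32, where Nr1d2 lost its call without non-cachectic library 62, 64 or 65 (adjusted p 0.0548 to 0.0637) and Tef without 63 (adjusted p = 0.0553). Dunn's test ended the soleus calls of Tef, Hlf and Bhlhe41 (adjusted p = 0.0641 each), and the mock diaphragm call of Nr1d1 (adjusted p = 0.0557). After rFibcd1 1 of the 10 was called between melanomas, beside 9.11% of all genes. This was Tef, which rose by 0.72 (adjusted p = 0.0248) and lost the call without cachectic library 3, 4 or 5 or non-cachectic library 58 (adjusted p 0.0555 to 0.0628), after median-ratio scaling (adjusted p = 0.0609), with only the groups compared (adjusted p = 0.108) and under Dunn's test (adjusted p = 0.203).

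Enzymes that act on the clock proteins formed another list. Of 14 enzymes tested (of 15 listed), which modify or degrade Per, Cry and other clock proteins, 6 rose and 1 fell in the mock diaphragm, 8 rose in TA and 2 rose and 1 fell in soleus, beside 33.5%, 60.2% and 25.1% of all genes called. Csnk1a1, a casein kinase, rose in each, by 0.63, 0.62 and 0.60 (log2, adjusted p at most 0.00420). Of the 4 partners tested (of 6 listed), 2 were called higher in the mock diaphragm, 1 in the rFibcd1 diaphragm, 3 in TA and 1 in soleus. All genes called were 33.5%, 9.11%, 60.2% and 25.1% there. Timeless, named after its values were seen, rose by 0.74, 0.70, 1.21 and 0.63 in the same order, where the median of all genes in TA was 0.41. None of the enzymes or partners was called between rFibcd1 and mock in either melanoma.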

How the data were processed

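RNA was sequenced from 59 muscle libraries in 8 labelled groups. The authors aligned reads to the mouse genome (GRCm38, mm10) in CLC Genomics Workbench and deposited TPM values for 47643 gene symbols, each library summing to 1e+06. The annotation is not given in the sources used here, the labels and the methods name different library kits, and strand handling in counting is therefore not known. TPM keeps no read total, so that counting error could not be computed. Column names give the group and a number that is not the labelled replicate number, and libraries are named by that column number. The labels do not state that libraries of a group came from separate animals, and p-values measure the spread between libraries.

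From the deposited TPM, log2(TPM + 1) was fitted with limma 3.58.1 (R 4.3.3, empirical Bayes with trend, two-sided) on genes at 1 TPM or more in as many libraries as the smallest group. The 39 diaphragm libraries, the 10 TA libraries, the 10 soleus libraries and the 6 groups without rFibcd1 were fitted separately, with Benjamini-Hochberg adjustment over all genes of a comparison. Differences on this scale understate changes of genes near 1 TPM. Pairwise correlations used all pairings at n = 9 and 100000 random pairings at n = 10 (smallest p 1e-05), in Python 3.11.15 with scipy 1.17.1, adjusted over all pairs and groups. Likeness to Arntl and Per2 was searched in genes with a mean of at least 5 TPM. Named genes were all 9 members, called genes of the listed clock-output factors, Timeless and Csnk1a1, and the 5 highest and 5 lowest genes of each likeness search, and 2 of these genes are not reported here. Timeless and Csnk1a1 were named after their values were seen. The members and lists were chosen with earlier results of these data known. Alternatives were a pseudocount of 0.1, no filter, a mean of at least 5 TPM, median-ratio scaling, a library-state term, only the groups compared, Dunn's test and leaving out each library. After seeing the data, the column number as a random block and only column numbers present in all 3 muscles were added. Scripts were tested on simulated data.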

Additional observations from a re-analysis of the deposited data

Results flagged for a closer look

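In 13 of 72 gene and group combinations, a library stood apart from the rest of its group by Dixon's criterion, applied to TPM. Chance meets this criterion in about 1 of 20 groups when values are normally distributed. That rate was not tested for TPM, and each library that stood apart was on the high side, so 13 is not shown to be an excess. The 13 came from 7 libraries, and genes of 1 library are not independent. None of the values was left out of the comparisons.

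The cachectic TA library 8 was highest in its group for Arntl (40.9 TPM, next 7.94), Npas2 (1.70 TPM, next 0.318) and Clock (10.4 TPM, next 5.28). The soleus library with the same column number was highest for Cry2 (46.9 TPM, next 37.3), and the cachectic mock diaphragm library 8 had 22.2 TPM of Arntl. The cachectic rFibcd1 diaphragm library 17 was highest for Arntl (32.6 TPM, next 14.2) and Npas2 (3.72 TPM, next 1.43). The non-cachectic mock diaphragm library 66 was highest for Arntl (14.6 TPM, next 6.90) and Npas2 (0.553 TPM, next 0.289). In these 3 groups the 2 activators were thus highest in the same library.

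Repressors stood out in other libraries. The cachectic mock diaphragm library 20 was highest for Per1 (186 TPM, next 65.4), Cry2 (53.5 TPM, next 20.8) and Ciart (65.1 TPM, next 12.04). The non-cachectic rFibcd1 diaphragm library 48 was highest for Ciart (6.18 TPM, next 3.23). The non-cachectic TA library 65 was highest for Npas2 at a low level (0.163 TPM, next 0.101).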

How the results depend on the processing

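Numbers of the 9 members called depended on the processing as follows. Leaving out each library in turn gave 1 to 2 for the melanomas in mock diaphragm, 2 to 6 after rFibcd1, 0 to 0 and 5 to 7 for rFibcd1 against mock with the cachectic and non-cachectic melanoma, 0 for the interaction, 3 to 5 in TA and 4 to 6 in soleus. In the fit over 6 groups it gave 0 for the diaphragm minus TA and diaphragm minus soleus effects, 0 to 1 for TA minus soleus, and 1 to 2, 1 and 3 to 5 for diaphragm against TA, diaphragm against soleus and TA against soleus. In mock diaphragm, 1 call became 2 with a pseudocount of 0.1 (adding Npas2), a mean of at least 5 TPM or only the groups compared (both adding Cry2), and 0 with median-ratio scaling or the library-state term, under which Arntl was at -0.16 and Clock at -0.094. After rFibcd1, 5 calls became 2 without a filter and 0 with only the groups compared or Dunn's test. For rFibcd1 in the non-cachectic diaphragm, 6 became 2 under Dunn's test, and Ciart also lost its call without a filter or with the library-state term. In TA, 4 became 2 with a mean of at least 5 TPM (Ciart lost its call and Clock, below 5 TPM, was not tested) and with median-ratio scaling, under which Per3 was at -0.32, Cry2 at -0.19 and Bhlhe40 at -0.19. The TA minus soleus count became 1 (Per3) with a pseudocount of 0.1, a mean of at least 5 TPM, the library-state term, only the groups compared, the random block on column number or only shared column numbers. Diaphragm against TA went from 2 to 1 without a filter and to 3 with only shared column numbers (adding Ciart), and with median-ratio scaling it stayed at 2 with different genes, Cry1 and Cry2 in place of Per2 (0.27) and Per3 (-0.056). TA against soleus went from 3 to 0 with median-ratio scaling, 7 with only the groups compared, and 5 with the random block or only shared column numbers (both adding Per1 and Ciart). Per1 in soleus ranged from -0.017 (without the non-cachectic library 61) to 0.24 when each library was left out. Pairs passing went from 8 to 4 in the larger library state and 1 by rho (cachectic mock), 14 to 25 with median-ratio scaling and 8 by rho (cachectic rFibcd1), 21 to 3 and 12 (non-cachectic mock), and 13 to 0 and 7 (non-cachectic rFibcd1), where the larger state holds 6 to 9 libraries. Other causes were not tested. Over all genes, median-ratio scaling took calls from 4501 to 2121 in mock diaphragm, 6680 to 4470 in TA and 2750 to 1557 for TA minus soleus, but from 6 to 27 for rFibcd1 in the cachectic diaphragm, 2999 to 3357 in soleus and 5243 to 6338 for diaphragm against soleus. Of 792 leave-one-out values of called members, 743 kept their call and 49 lost it, none reversing, and of 180 values under other settings 143 kept it, 36 lost it and 1 reversed. By the replicate numbers of the labels, no paired analysis was possible because the columns do not carry them. Libraries of different muscles with the same column number were tied instead in the random block fit (consensus correlation 0.3807) and the fit on shared column numbers, and where these changed a count it stands above. Since depth is unknown, low levels such as those of Npas2 carry an unknown counting error.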
